A study of Mus musculus with 6 samples.

Results

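The miR-15, miR-16, miR-195, miR-322 and miR-497 family was examined in livers of mice with carbon tetrachloride (CCl4)-induced fibrosis. Its members were taken by name, as every mouse miRNA on the array called miR-15a, miR-15b, miR-16, miR-195 or miR-195a, miR-322, and miR-497 or miR-497a with the suffix -5p. This gave 6 of the 1247 miRNAs on the array, namely mmu-miR-15a-5p, mmu-miR-15b-5p, mmu-miR-16-5p, mmu-miR-195a-5p, mmu-miR-497-5p and mmu-miR-322-5p, written below without the mouse prefix. All 6 were detected on all arrays, as were 166 miRNAs in total. Total liver RNA of 6 male C57BL/6 mice was labeled with Cy3 and hybridized to 1 miRNA array per mouse. From 7 weeks of age, 3 mice had intraperitoneal CCl4, a hepatocyte toxin, at 0.6 mL/kg in corn oil, 2 times a week over 10 weeks. The 3 control mice had an equal volume of corn oil on the same schedule, so both groups shared the vehicle and the injections. The study asked which miRNAs differ between fibrotic and control liver.

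miRNAs recognize their target mRNAs mainly through the seed, bases 2 to 8 from the 5′ end, so that miRNAs with the same seed can act on the same targets. The miR-15/16 family is known for restraining the cell cycle, through cyclins and cyclin-dependent kinases, and for lowering the survival protein Bcl2. Its members come from separate genes that are switched on in different cells, and miR-322, the mouse counterpart of human miR-424, is best known from differentiating muscle and mesenchymal cells.

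The sequences are shown to compare the shared 5′ ends of the members with their different 3′ ends. All 6 were found in the RefSeq miRNA table of build GRCm38.p6, miR-497-5p under its later name miR-497a-5p. Capitals mark the seed:
miR-15a-5p: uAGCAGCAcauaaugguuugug
miR-15b-5p: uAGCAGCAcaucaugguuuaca
miR-16-5p: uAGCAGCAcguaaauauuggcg
miR-195a-5p: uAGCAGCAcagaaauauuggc
miR-497-5p: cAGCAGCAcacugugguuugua
miR-322-5p: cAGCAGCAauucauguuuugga

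The seed AGCAGCA was the same in all 6 members. Aligned without gaps from the 5′ end, miR-16-5p and miR-195a-5p matched at 19 of 21 positions and miR-15a-5p and miR-15b-5p at 18 of 22. The other pairs matched at between 11 and 17 positions. Whether probes of such similar members also bound each other's RNA was not tested.

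The 6 miRNAs are encoded by 7 genes in 4 places (RefSeq, GRCm38.p6). Mir15a (chr14:61632075-61632096, minus strand) lies 117 bases from Mir16-1 (chr14:61631936-61631957), both within the span of the long noncoding RNA gene Dleu2. Mir15b (chr3:69009775-69009796, plus strand) lies 121 bases from Mir16-2 (chr3:69009918-69009939), both within Smc4, which encodes a condensin subunit needed for chromosome condensation. Mir16-1 and Mir16-2 yield the same miR-16-5p, so its signal cannot be divided between these genes. Mir497 (chr11:70234730-70234751, plus strand) lies 310 bases from Mir195a (chr11:70235062-70235082), and Mir322 (chrX:53054306-53054327, minus strand) lies within the long noncoding RNA gene C430049B03Rik. The distances are those between the mature sequences. Coordinates come from RefSeq, whereas the scanner files name an older build, mm9.

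The arrays were not alike in overall signal. The software detected 186 to 193 miRNAs on the corn oil arrays, 245 and 227 on CCl4 replicates 1 and 2, and 334 on CCl4 replicate 3. On this last array miR-122-5p, the main hepatocyte miRNA, was at 2158, against 13110 and 15544 on the other CCl4 arrays and 16613 to 18345 on the corn oil arrays. Results are therefore given with and without CCl4 replicate 3. The CCl4 arrays lay in one row of the slide and the corn oil arrays in another, so row and treatment cannot be told apart. In whole liver, fewer cells of a type and less RNA per cell cannot be told apart either. No label says how the RNAs were batched, and p-values measure the spread between these 6 livers.

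The total signal of a miRNA is the summed, background-subtracted signal of its spots, an intensity without unit and without normalization between arrays. miR-15a-5p, encoded beside Mir16-1, had total signals of 296, 294 and 325 with corn oil and 337, 302 and 760 with CCl4. miR-16-5p, the member shared by both pairs of genes and abundant in blood cells, had 271, 277 and 311 with corn oil and 362, 301 and 1057 with CCl4. For both miRNAs the groups overlapped, and CCl4 replicate 2 lay within the range of the corn oil arrays.

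miR-15b-5p, encoded beside Mir16-2 within Smc4, had total signals of 96.4, 109 and 111 with corn oil and 244, 189 and 532 with CCl4. Every CCl4 array was above every corn oil array. The mean of CCl4 replicates 1 and 2 was 2.06-fold the corn oil mean for miR-15b-5p, whereas it was 1.05-fold for miR-15a-5p and 1.16-fold for miR-16-5p.

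miR-195a-5p and miR-497-5p come from neighboring genes. The total signals of miR-195a-5p were 42.5, 35.9 and 63.6 with corn oil and 165, 82.1 and 299 with CCl4. Those of miR-497-5p were 38.5, 31.5 and 53.4 with corn oil and 161, 79.9 and 271 with CCl4. The arrays had the same order for both miRNAs, lowest on corn oil replicate 2 and highest on CCl4 replicate 3, and the groups did not overlap. The mean of CCl4 replicates 1 and 2 was 2.61-fold the corn oil mean for miR-195a-5p and 2.93-fold for miR-497-5p.

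miR-322-5p had total signals of 15.6, 12.9 and 15.01 with corn oil and 44.5, 47.6 and 722 with CCl4. The groups did not overlap, and CCl4 replicates 1 and 2 lay close together at 3.17-fold the corn oil mean. CCl4 replicate 3 stood apart at 15.7-fold the mean of the other CCl4 arrays, where the other 5 members were 2.25-fold to 3.19-fold. On the corn oil arrays 85.0%, 55.0% and 72.5% of the 40 spots of miR-322-5p were well above background. For the other members at least 85.0% were so on every array, and no spot was saturated.

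**Figure D1:**
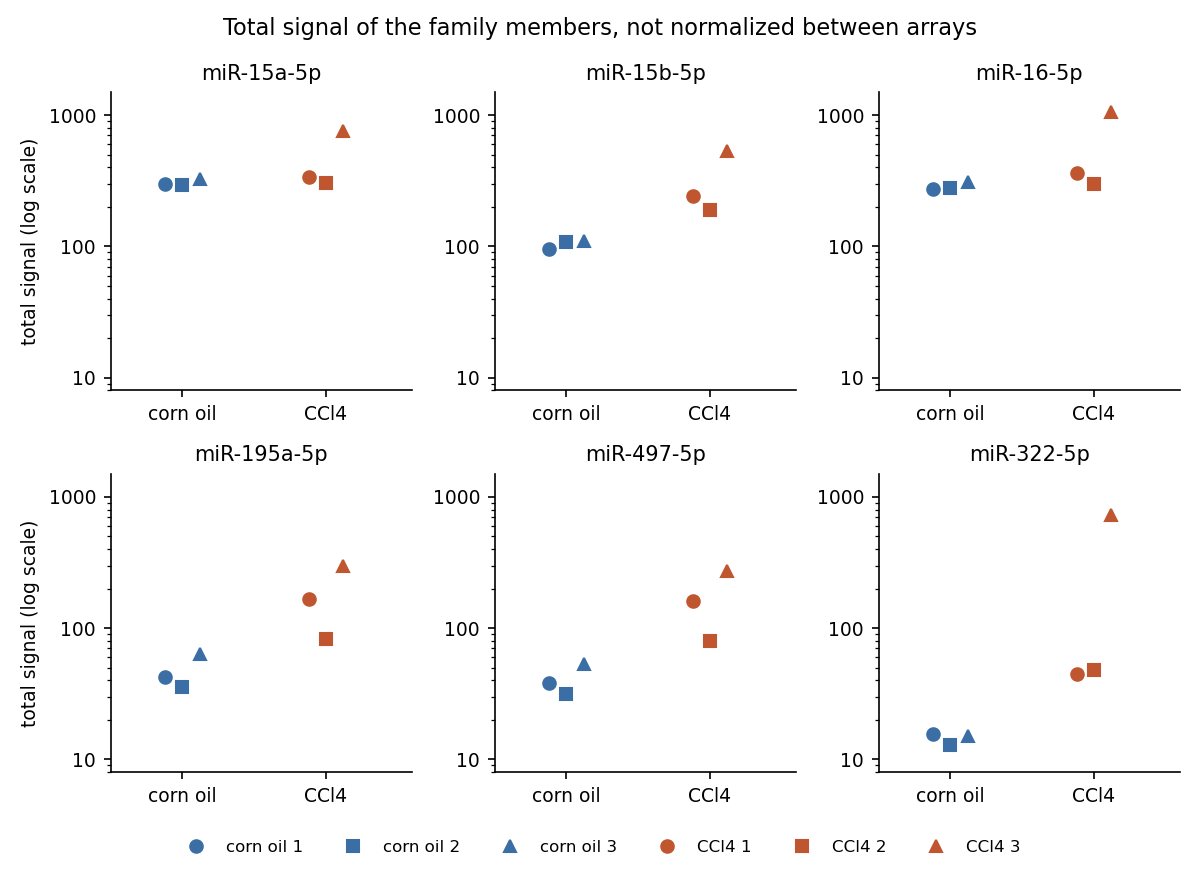
Total signal of each family member on the 3 corn oil arrays (blue) and the 3 CCl4 arrays (orange), on a log axis and without normalization between arrays; each point is 1 liver and its shape gives the replicate number. For miR-15a-5p and miR-16-5p the groups overlap, for the other 4 members they do not, and CCl4 replicate 3 is the highest array in every panel.

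Without normalization, 4 of the 6 members were thus higher on every CCl4 array than on any corn oil array. Of all 166 miRNAs 63.3% were. The 166 miRNAs had a median log2 change of 0.99 from corn oil to CCl4 on this scale. The changes were 0.48 for miR-15a-5p and 0.77 for miR-16-5p, under that median, and 1.47 for miR-15b-5p, 1.80 for miR-195a-5p, 1.92 for miR-497-5p and 2.99 for miR-322-5p, above it.

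Each member was measured by 2 probes with 20 spots each. The probes of one member gave nearly the same answer: their log2 changes without normalization differed by between 0.00376 and 0.0692, the latter for miR-322-5p.

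For the test, the log2 total signals of the 166 miRNAs were quantile normalized, which gives every array the same distribution, and compared in limma. To be called, a miRNA needed an adjusted p below 0.05 and a difference over 2-fold. None of the 6 members was called, where 12% of the 166 were, 7.23% in the higher and 4.82% in the lower direction. The calls were 12 higher and 8 lower, compared with 11 and 5 under 75th percentile scaling and 18 and 0 without normalization. At the adjusted p alone, again none of the members passed and 13.3% of the 166 did. Before adjustment, limma gave 0.0116 for miR-15a-5p and 0.0299 for miR-16-5p, both lower, and values above 0.05 for the other 4.

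miR-15a-5p was at 8.75, 8.83 and 8.87 on the normalized log2 scale in the corn oil livers and at 8.20, 8.47 and 8.07 in the CCl4 livers. The log2 difference was -0.57 (standard error 0.15, 95% interval -0.96 to -0.19, limma adjusted p = 0.069). miR-16-5p was at 8.55, 8.71 and 8.75 in the corn oil livers and at 8.27, 8.27 and 8.37 in the CCl4 livers. The log2 difference was -0.37 (standard error 0.13, 95% interval -0.69 to -0.05, adjusted p = 0.118). For both, each CCl4 liver was under each corn oil liver, as was the case for 24.7% of the 166 miRNAs. Without normalization both differences were positive, so their sign depends on the scaling. Relative to the median of all 166 miRNAs, which was -0.14 after quantile normalization and 0.99 without it, both were lower on either scale.

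miR-15b-5p averaged 7.37 ± 0.14 (SD, n = 3 livers) with corn oil and 7.57 ± 0.17 with CCl4, a log2 difference of 0.20 with a 95% interval of -0.19 to 0.59. miR-195a-5p averaged 6.27 ± 0.39 and 6.66 ± 0.41, a difference of 0.38 (interval -0.37 to 1.14). miR-497-5p averaged 6.05 ± 0.27 and 6.55 ± 0.41, a difference of 0.51 (interval -0.17 to 1.18). For these 3 members the groups overlapped after quantile normalization, and the intervals held both no difference and, for miR-195a-5p and miR-497-5p, a rise over 2-fold. The adjusted p was 0.429, 0.429 and 0.256 in this order.

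miR-322-5p averaged 4.42 ± 0.12 with corn oil and 6.17 ± 1.46 with CCl4 (SD, n = 3 livers). Its log2 difference of 1.75 was the largest of the family, but so was its standard error of 0.73, and the interval ran from -0.09 to 3.59 (limma adjusted p = 0.181). The normalized values did not overlap, with 4.55, 4.41 and 4.30 in the corn oil livers and 5.13, 5.54 and 7.83 in the CCl4 livers. This was so, in the higher direction, for 14.5% of the 166 miRNAs.

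Without CCl4 replicate 3 the standard error of miR-322-5p was 0.16 instead of 0.73, and those of miR-15a-5p, miR-15b-5p and miR-16-5p were also smaller, whereas that of miR-195a-5p was 0.38 instead of 0.30 and that of miR-497-5p 0.32 instead of 0.27. Of all 166 miRNAs, 52.4% then passed the adjusted p of 0.05, so that passing it set few miRNAs apart. miR-15a-5p fell by 0.47 (adjusted p = 0.021), miR-16-5p fell by 0.40 (adjusted p = 0.021) and miR-322-5p rose by 0.88 (adjusted p = 0.019) on the log2 scale. miR-15b-5p differed by 0.30 (adjusted p = 0.067), miR-195a-5p by 0.40 (adjusted p = 0.43) and miR-497-5p by 0.59 (adjusted p = 0.20). No member reached a fold change over 2. With 75th percentile scaling in place of quantiles, 60.8% of the miRNAs passed, and so did all members except miR-195a-5p. In that fit miR-322-5p was also called, with a log2 change of 1.03 (adjusted p = 0.0034), as were 15.7% of the 166.

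**Figure D2:**
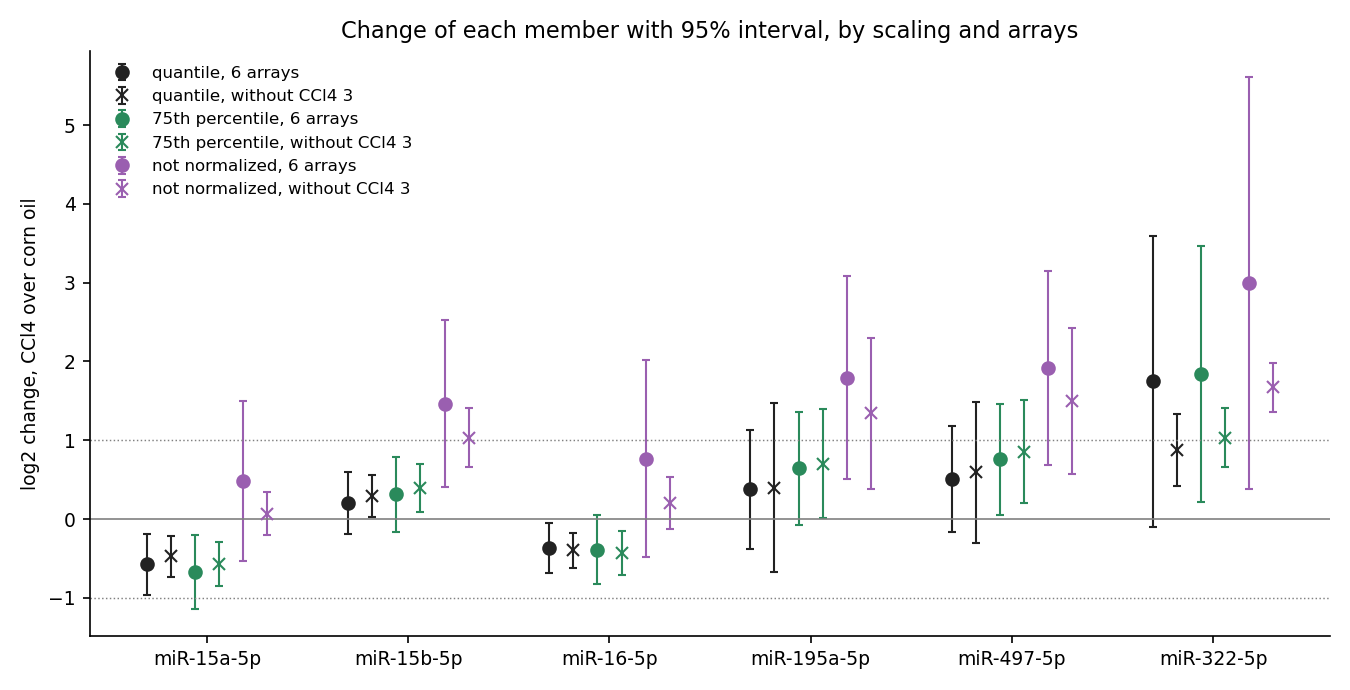
Log2 change of each member, CCl4 over corn oil, with its 95% interval from limma (vertical bars), after quantile normalization (black), with 75th percentile scaling (green) and without normalization (purple). Circles are fits of 6 arrays and crosses are fits without CCl4 replicate 3; dotted lines mark 2-fold. miR-15a-5p and miR-16-5p lie below 0 on both normalized scales and above 0 without normalization, the other 4 members lie above 0 throughout, and the interval of miR-322-5p shrinks without CCl4 replicate 3.

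Differences between members within an array are not changed by multiplying an array's signals by a factor, although quantile normalization moved the shifts below by up to 0.359 on the log2 scale. For each of the 15 pairs of members, the log2 signal of one was subtracted from that of the other on each array, and the shift of this difference between the groups was read. The difference itself compares different probes and is not a ratio of copies. Each mean shift equals the difference between the changes of both members without normalization. The shifts therefore keep the order of those changes by construction, and this order is no separate result. miR-15a-5p was lowest, followed by miR-16-5p, miR-15b-5p, miR-195a-5p, miR-497-5p and miR-322-5p.

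The shift of miR-15b-5p against miR-15a-5p, close relatives from different genes, had a small spread in both groups. Their within-array log2 difference was -1.62, -1.43 and -1.55 with corn oil and -0.47, -0.68 and -0.51 with CCl4. The mean moved from -1.53 ± 0.10 to -0.55 ± 0.11 (SD, n = 3 livers), a shift of 0.98 or 1.98-fold in favor of miR-15b-5p. CCl4 replicate 3 lay between the other CCl4 arrays, and with any 1 array left out the shift was between 0.94 and 1.04. The two-sided exact permutation test gave p = 0.1, the smallest that 3 livers against 3 can give, so no pair can pass 0.05 in this design.

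Against miR-16-5p, miR-15b-5p shifted by 0.70, from -1.44 ± 0.08 to -0.74 ± 0.22. miR-16-5p itself shifted by 0.28 against miR-15a-5p, from -0.09 ± 0.03 to 0.19 ± 0.25, and by 0.14 without CCl4 replicate 3. The shared miRNA of both gene pairs thus lay between its neighbors miR-15a-5p and miR-15b-5p, nearer to miR-15a-5p. The groups did not overlap for either pair.

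miR-195a-5p and miR-497-5p moved together. Their within-array difference, miR-497-5p minus miR-195a-5p, was -0.14, -0.19 and -0.25 with corn oil and -0.04, -0.04 and -0.14 with CCl4. The shift of 0.12 was the smallest of the 15 pairs, and the groups overlapped (exact permutation p = 0.2). Both shifted against miR-15a-5p, miR-497-5p by 1.43 and miR-195a-5p by 1.31, with values of 1.43 and 1.28 without CCl4 replicate 3. Against miR-16-5p the shifts were 1.15 and 1.03, and none of these 4 pairs overlapped between the groups. Against miR-15b-5p they shifted by 0.45 and 0.33, with overlapping groups. These shifts depended on single arrays: they were 0.25 and 0.13 without corn oil replicate 2, 0.28 and 0.18 without CCl4 replicate 1, 0.62 and 0.53 without corn oil replicate 3, and that of miR-195a-5p was 0.50 without CCl4 replicate 2.

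miR-322-5p shifted by 2.51 against miR-15a-5p, from -4.40 ± 0.14 to -1.89 ± 1.58, and CCl4 replicate 3 carried much of it. Without that array the shift was 1.603, that is 3.04-fold. Against miR-15b-5p it shifted by 1.53 with all arrays and by 0.64 without CCl4 replicate 3, and the groups did not overlap. Against miR-497-5p the shift of miR-322-5p was 1.08 with all arrays and 0.17 without CCl4 replicate 3, and against miR-195a-5p 1.20 and 0.33. For these last pairs the groups overlapped. Over CCl4 replicates 1 and 2 the shift against miR-15a-5p was thus 1.603 for miR-322-5p and 1.43 for miR-497-5p.

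In all, the groups did not overlap for 10 of the 15 pairs, or 66.7%. Among all 13695 pairs of the 166 miRNAs this was so for 49%. The 15 pairs share 6 miRNAs and are not independent of each other.

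**Figure D3:**
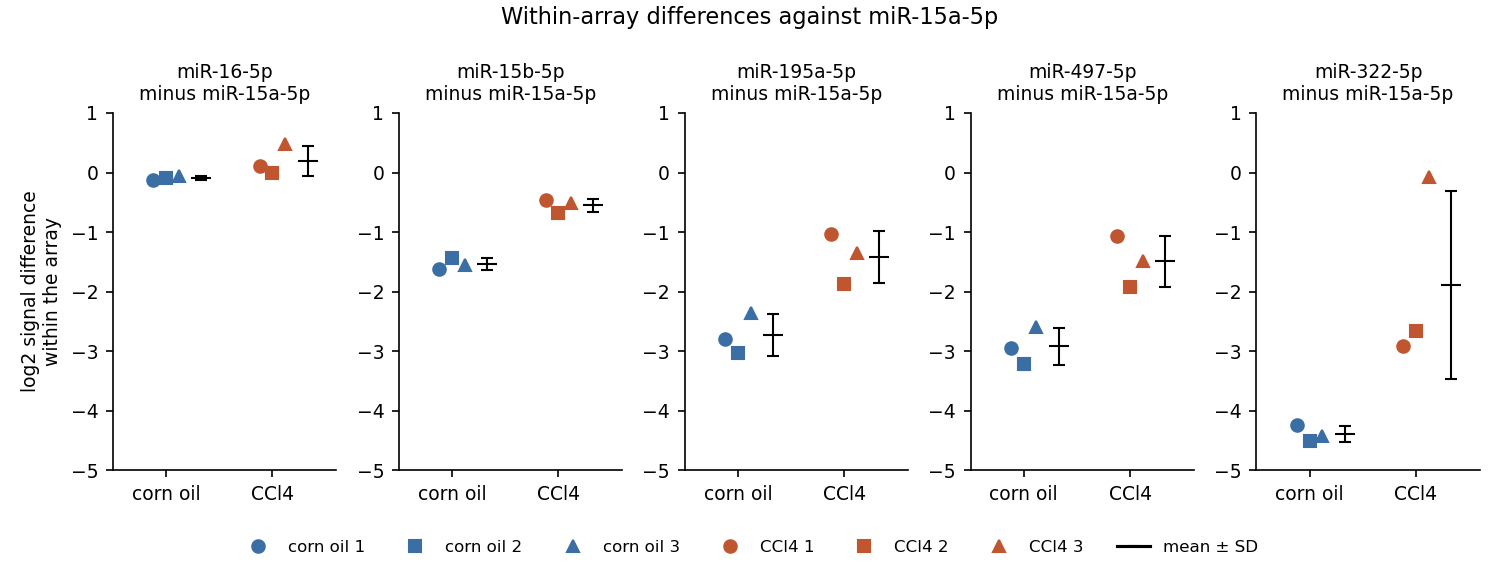
Log2 signal of 5 members minus that of miR-15a-5p on the same array, for corn oil (blue) and CCl4 (orange) livers; each point is 1 array, its shape gives the replicate number, and the black bar is the mean with its SD (n = 3 livers). All 5 differences are higher in every CCl4 liver, by a mean of 0.28 for miR-16-5p and 0.98 for miR-15b-5p up to 2.51 for miR-322-5p, whose CCl4 livers spread the most.

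Marker miRNAs of other cells were read on the same arrays. The summed signal of 6 mesenchymal miRNAs, among them miR-199a-3p and miR-214-3p of stellate cells and fibroblasts, was 67.2 to 109 with corn oil and 643, 255 and 1236 with CCl4. miR-145a-5p, a smooth muscle miRNA of this list, was not detected on any corn oil array. The 7 immune miRNAs summed to 101 to 119 with corn oil and 429 to 694 with CCl4, with miR-150-5p undetected in the corn oil group and miR-155-5p detected on CCl4 replicate 1 alone, at 5.34 with 15% of its spots well above background. The 5 hepatocyte miRNAs summed to 18946 to 20847 with corn oil and to 14955, 17730 and 2750 with CCl4, and most of each sum was miR-122-5p. For miR-148a-3p of this list the groups overlapped, at 447, 378 and 418 with corn oil and 402, 426 and 292 with CCl4. The part of these cells in the changes of the family was not tested.

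Blood and vessel miRNAs were read in the same way. The summed signal of miR-144-3p and miR-451a, both from red cells, was 466 to 754 with corn oil and 730, 315 and 2135 with CCl4, and that of both miR-126 arms, from endothelial cells, was 563 to 677 and 824, 821 and 3732. The mesenchymal, immune and endothelial sums had the same order of the 6 arrays as miR-195a-5p and miR-497-5p, and the red cell sum did not. Within the immune list miR-142-3p, miR-142-5p and miR-223-3p were instead highest on CCl4 replicate 1, whereas miR-146a-5p and miR-342-3p had this order. miR-142-3p was at 174.4, 121.0 and 150.5 with CCl4, and miR-342-3p at 102.5, 83.0 and 236.1. The endothelial sum was mostly miR-126-3p, which lacked this order, at 806.0 and 807.7 on CCl4 replicates 1 and 2. The red cell sum was mostly miR-451a. miRNAs outside these lists had this order too, among them miR-103-3p, miR-652-3p and miR-3473b. The share of all 166 miRNAs with this order was not counted, so it singles out no cell type. By the limma fit, 2 of the 4 mesenchymal and 1 of the 4 immune miRNAs detected on all arrays were higher at an adjusted p under 0.05, as were 7.83% of all 166, and none of 4 hepatocyte, 2 red cell and 2 endothelial miRNAs passed.

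The opposite strands of the family hairpins were mostly not detected. Of 7 opposite arms on the array, 6 were not detected on any array, namely miR-15a-3p, miR-15b-3p, miR-16-1-3p, miR-16-2-3p, miR-195a-3p and miR-497-3p. The software sets such signals to 0.1. Most miRNAs of the array were likewise undetected, so this does not set the opposite arms apart. Of all 1247 miRNAs, 993 were undetected on every array other than CCl4 replicate 3, and 11.2% of these were detected on that array. miR-322-3p was detected on CCl4 replicate 3 alone at 3.59, with 2.5% of its spots well above background. Apart from miR-322-3p, the detected signal of the hairpins thus came from the 5p arms, and the arms that would tell Mir16-1 from Mir16-2 gave no level.

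The miRNAs around Mir322 were examined as well, because the array of highest miR-322-5p stood apart. The cluster holds miR-503, miR-351, miR-542 and miR-450, and miR-503-5p, known like miR-322 to restrain cell division, carries a related seed:
miR-503-5p: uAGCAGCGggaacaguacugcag

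Besides miR-322-5p, 10 miRNAs of this cluster were listed. On CCl4 replicate 3 alone, 7 of the 10 were detected, and 3 were detected on no array. miR-503-5p reached 57.4 with 100% of its spots well above background, miR-450a-5p 26.4 with 85.0%, miR-542-5p 13.5 with 47.5%, miR-542-3p 8.21 with 15% and miR-351-5p 5.20 with 25.0%. The remaining members were near the limit of detection, miR-322-3p as given above and miR-450b-3p at 3.26 with 0% of its spots well above background. None was detected on the other 5 arrays, where miR-322-5p was detected at 12.9 to 47.6. Among all 993 miRNAs undetected on those 5 arrays, 11.2% were detected on CCl4 replicate 3.

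**Figure D4:**
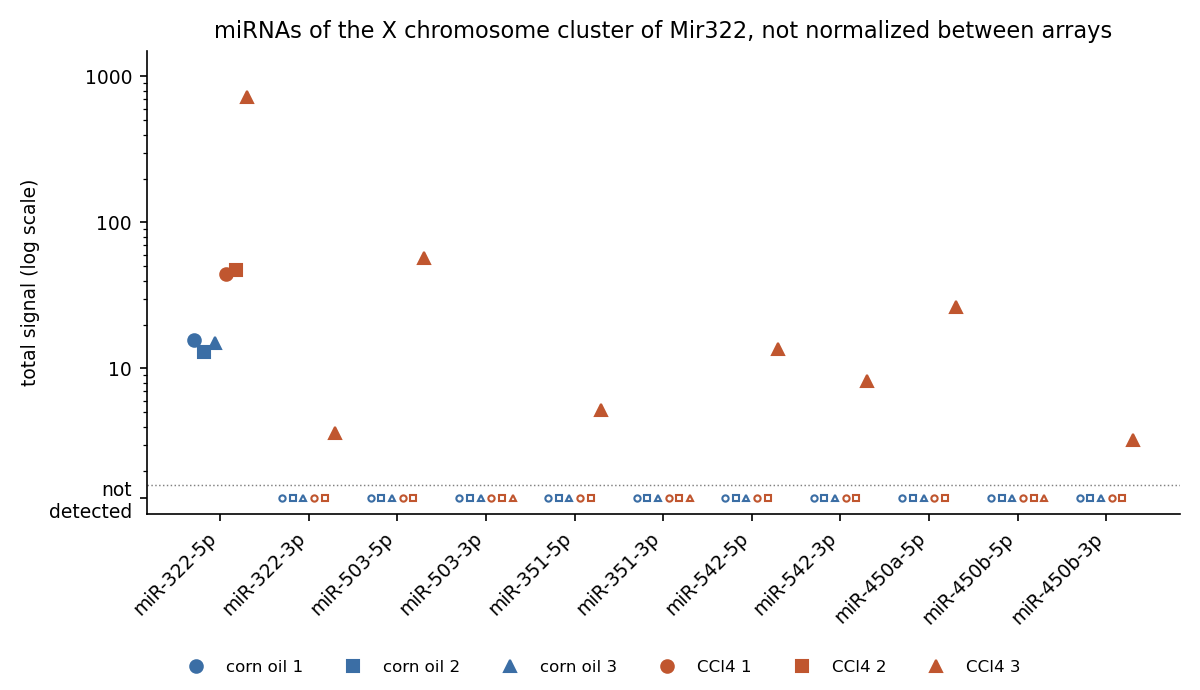
Total signal of miR-322-5p and 10 other miRNAs of its X chromosome cluster on the 3 corn oil (blue) and 3 CCl4 (orange) arrays, on a log axis; shapes give the replicate number, and small open symbols under the dotted line mark arrays on which the miRNA was not detected. miR-322-5p is present on every array, while the 7 others with a level have it on CCl4 replicate 3 alone.

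miR-322-5p was among the miRNAs that lay furthest above the other CCl4 arrays on that array. Its log2 signal on CCl4 replicate 3 was 3.97 above the mean of the other CCl4 arrays, and the median of the 166 miRNAs was 1.36. Only miR-7a-5p at 6.41 and miR-10a-5p at 4.55, both chosen after their values were seen, lay further above. In this upward direction, 1.81% of the miRNAs reached the value of miR-322-5p. Downward differences were not counted, and miR-122-5p was at 0.151-fold the mean of the other CCl4 arrays. The other 5 members of the family were between 1.25 and 1.68, close to the median of 1.36.

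Apart from the members, 7 miRNAs on the array carry AGCAGC within their first 8 bases. Of these, miR-195b, miR-6342, miR-6353 and miR-6419 were detected on no array and miR-503-5p is described above. The other two, miR-103-3p and miR-107-3p, lie in introns of pantothenate kinase genes and are known from lipid and insulin metabolism. Their sequences are shown because the same bases sit 1 position nearer to the 5′ end, which gives a different seed:
miR-103-3p: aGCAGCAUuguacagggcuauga
miR-107-3p: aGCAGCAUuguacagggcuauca

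miR-103-3p had total signals of 115, 102 and 118 with corn oil and 142.8, 130 and 789 with CCl4. For miR-107-3p they were 167, 138 and 152 with corn oil and 154, 159 and 629 with CCl4. Apart from CCl4 replicate 3 the levels of miR-107-3p overlapped between the groups, as those of miR-15a-5p and miR-16-5p did. After quantile normalization the log2 differences were -0.21 and -0.65, with limma adjusted p of 0.76 and 0.16. Without CCl4 replicate 3 they were -0.64 and -0.84, with adjusted p of 0.028 and 0.037, in a fit in which 33.7% of the 166 miRNAs passed in the lower direction.

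The miRNAs outside the family with the most similar pattern over the 6 arrays were found by the root mean square difference of normalized log2 signals, each centered on its own mean. Smaller values mean more alike. For miR-15a-5p they were miR-677-3p at 0.0654 and miR-712-5p at 0.0843, and for miR-16-5p miR-690 at 0.0668 and miR-425-5p at 0.101, where the median over the 160 candidates was 0.481 and 0.476. For miR-15b-5p they were miR-340-5p at 0.159 and miR-3963 at 0.162. The latter kept its rank on every array, so that quantile normalization gave it a constant value, and its nearness shows only that miR-15b-5p varied little. For miR-322-5p they were miR-652-3p at 0.415 and let-7c-5p at 0.448, against a median of 1.302, and let-7c-5p was likewise highest on CCl4 replicate 3.

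miR-3473a and miR-3473b were nearest to both miR-195a-5p (0.219 and 0.237) and miR-497-5p (0.172 and 0.155). miR-195a-5p and miR-497-5p lay nearer still to each other, at 0.118. For the other 4 members the nearest miRNA of the family was further than the nearest outside it. The comparison is uneven, because the nearest outside was taken from 160 candidates and the nearest inside from the few other members. miR-15a-5p and miR-16-5p were 0.177 apart, and miR-15b-5p was 0.321 from miR-16-5p. The nearest member to miR-322-5p was miR-497-5p at 1.17.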

How the data were processed

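Liver RNA of 3 CCl4-treated and 3 corn oil-treated mice was measured on 1-color arrays. The authors deposited scanner output of Agilent Feature Extraction 11.0.1.1 (version per the submitters' processing notes), in which the intensity of each miRNA is background subtracted, summed over its spots and not normalized between arrays. Undetected miRNAs are set to 0.1. The authors also deposited an intensity table of 111 miRNAs, quantile normalized, used as an alternative. Groups and replicate numbers came from the sample titles.

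Following the description in the study's methods, miRNAs had to be detected on all 6 arrays, and the log2 of their total signals was quantile normalized. This filter left 166 miRNAs, whereas the deposited table holds 111. The cause of this difference was not tested. limma 3.58.1 (lmFit, eBayes; R 4.3.3) then compared the treatments, with no other term and with Benjamini-Hochberg adjustment over all 166 miRNAs. The main fit was also run on simulated data with independent noise and changes larger than those of the members in the main fit. No simulated array was set apart as CCl4 replicate 3 was, so these runs do not bear on the members' smaller changes here. Pairs of members were compared within arrays by exact permutation tests (scipy 1.17.1 in Python 3.11.15). Sequences and gene positions came from RefSeq tables of GRCm38.p6.

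Members, lists and tests were chosen with earlier results of these data known. Named miRNAs were the members, their opposite arms, miRNAs with AGCAGC in bases 1 to 8, the miR-322 cluster, the 2 most similar miRNAs per member and cell type lists. In those lists miR-486-5p was not matched by name on the array. Alternatives covered the scaling, the detection filter, the signal per miRNA, normexp background correction with an offset of 50, the deposited values, the moderation, the replicate block and each array left out. Scaling combined with leaving out CCl4 replicate 3 was added after the data were seen. Precision is limited by the number of arrays.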

Additional observations from a re-analysis of the deposited data

How the results depend on the processing

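Of 101 alternative values of the 6 members' changes, 92 kept their direction and stayed uncalled. Those of the replicate block and of the other moderation equal the main changes by construction, so only their calls could differ. Without normalization between arrays miR-15a-5p changed by 0.48 and miR-16-5p by 0.77, and, with CCl4 replicate 3 left out too, by 0.067 and 0.21, against the negative changes after quantile normalization. In that last fit miR-15b-5p (1.03), miR-195a-5p (1.34), miR-497-5p (1.497) and miR-322-5p (1.67) were called. So were 24.7% of the 166 miRNAs, all of them higher, and the median change of the 166 was 0.45. With 75th percentile scaling and without CCl4 replicate 3, miR-322-5p was called at 1.03, as were 15.7% of the 166. These combined settings were chosen after seeing the data. All 135 alternative values of the 15 within-array shifts kept their direction. Among them, the values of the replicate block equal the main shifts by construction and could not change. The number of miRNAs called, 20 of 166, was 32 of 215 when detection on all arrays of 1 group sufficed, 6 of 1247 without a detection filter, 4 with normexp background correction, 12 of 111 in the deposited values and 41 without normalization and without CCl4 replicate 3. With 1 array left out it was 5 to 28, with 5 without corn oil replicate 2 or CCl4 replicate 1, 6 without corn oil replicate 3 and 7 without corn oil replicate 1. The cause was not tested. By adjusted p alone, miR-15a-5p passed 0.05 with the median spot signal (-0.65, adjusted p = 0.038), with normexp (-0.49, adjusted p = 0.049) and without CCl4 replicate 2 (-0.69, adjusted p = 0.041), all in limma, where 6.63%, 6.02% and 7.83% of the 166 miRNAs passed in the lower direction. miR-322-5p is not among the 111 miRNAs of the deposited intensity table, so the deposited values were fitted for the other members only. No member was called in any fit with 1 array left out and quantile normalization. Their changes then ranged from -0.69 to -0.47 for miR-15a-5p, 0.14 to 0.30 for miR-15b-5p, -0.42 to -0.32 for miR-16-5p, 0.16 to 0.59 for miR-195a-5p, 0.27 to 0.67 for miR-497-5p and 0.88 to 2.28 for miR-322-5p.

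The replicate block called 6 miRNAs and no member. The numbers share no animal. The deviations of same-numbered livers correlated at -0.18, 0.11 and 0.03, and those of differently numbered livers at between -0.27 and 0.24. Whether same-numbered samples also shared a processing step cannot be told from these values. On the corn oil arrays, 55.0% to 85.0% of the spots of miR-322-5p were well above background. With normexp its change was 0.99, and the changes of all members were smaller in size than in the main fit. The part of background in the change of miR-322-5p was not tested.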
